A study of Mus musculus with 8 samples.

Results

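The enzymes that burn fatty acids in the liver and turn the product into ketone bodies were described in the livers of METTL3-HKD and METTL3-Flox mice after hepatic ischemia and reperfusion (I/R). They were chosen by symbol, and all 37 chosen genes were found among the 54532 genes of the deposited table. By compartment, 22 were mitochondrial enzymes of oxidation, 8 were peroxisomal, 6 act in more than one place, and 1, Bdh1, makes the ketone body 3-hydroxybutyrate inside mitochondria. METTL3 is the catalytic subunit of the complex that writes N6-methyladenosine (m6A) on RNA, and METTL3-HKD mice (METTL3 flox/-; Alb-iCre) carry a Cre recombinase under the albumin promoter, which is active in hepatocytes. The study describes them as heterozygous, since mice with both alleles cut did not survive, so that METTL3 was to be reduced and not removed. METTL3-Flox mice (METTL3 flox/flox) from the same litters carry no Cre and served as controls. All 8 livers, 4 per genotype, went through 1 h of partial warm ischemia and 6 h of reperfusion, so that no liver without surgery enters the comparison, and the labels give no age. Bulk RNA of the whole tissue was sequenced to 15861245 to 18434488 reads on genes per liver. Values are fragments per kilobase of gene, scaled to library size (FPKM). A log2 fold change is METTL3-HKD against METTL3-Flox on the log2(FPKM + 0.1) scale, and "passed the test" means an adjusted p under 0.05 in limma over the 16645 genes tested.

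A fatty acid is first joined to coenzyme A by an acyl-CoA synthetase. Long chains then enter the mitochondrion as carnitine esters, a step opened by CPT1A, whereas medium chains cross the membrane freely and are activated inside by the ACSM enzymes. Each turn of the spiral is a dehydrogenation, a hydration, a second dehydrogenation and a thiolysis, and the electrons of the first step leave through the electron transfer flavoprotein. Very long and branched chains are shortened in peroxisomes by a parallel set of enzymes. In the fasting liver, the acetyl-CoA that results feeds ketone body synthesis, and the nuclear receptor PPARA drives many of these genes.

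The calls fell on the activation step. All 3 ACSM medium-chain synthetases were lower in METTL3-HKD livers, and the long-chain synthetase Acsl5 was higher. Of the 37 enzymes, these 1 higher and 3 lower were the ones that passed the test. Over all genes tested, 9.05% passed the test as higher and 6.63% as lower. The median log2 fold change of the enzymes was -0.10, and that of all genes tested was -0.00. After scaling to the reads on genes, which moved the median of all genes to 0.20, 4 enzymes were higher (Acsl4, Acsl5, Crat and Ehhadh) and 2 lower (Acsm3 and Acsm5) in limma, beside 13.9% higher and 2.24% lower of all genes. The median of the enzymes was -0.03 without METTL3-HKD liver 1, -0.01 without METTL3-Flox liver 2 and -0.04 without METTL3-Flox liver 4, and 0.12 after the scaling. The study also asked for a log2 fold change of 1 or more in size, and no enzyme met both of its thresholds in limma. At an unadjusted p under 0.05, limma gave 5 enzymes higher and 10 lower, beside 16.7% and 15.1% of all genes tested. After adjustment, voom on the rebuilt reads called 2 higher and 4 lower, beside 9.64% and 6.84% of all genes. The remaining 33 had adjusted p values from 0.0505 to 0.976 in limma, and for 31 of them the 95% interval of the log2 fold change stayed within 1 in both directions. Ehhadh and Acaa1b were the exceptions.

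**Figure D1:**
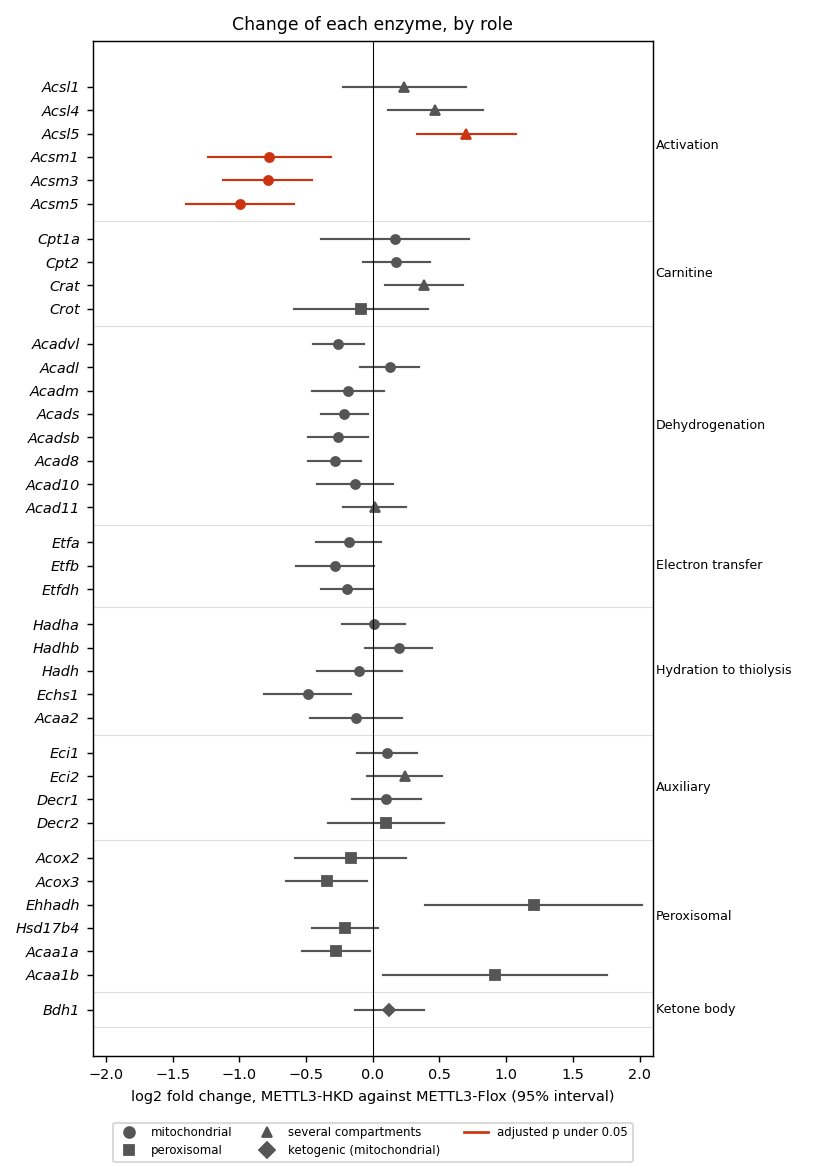
Points give the log2 fold change of each of the 37 enzymes, METTL3-HKD against METTL3-Flox, and lines its 95% interval, grouped by role in the pathway, with the marker shape for the compartment and red for an adjusted p under 0.05. The 3 ACSM genes lie left of 0 and Acsl5 right of it, while the dehydrogenases and the electron transfer genes lie close to 0.

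The promoter sequences of the enzymes that passed the test are shown because 3 of them, all lower, are neighbours. Acsm5 (chr7:119519463-119545551), Acsm1 (chr7:119607026-119662515) and Acsm3 (chr7:119760923-119787513) lie on the plus strand of 1 cluster in GRCm38. The bases before the RefSeq start of each gene (build GRCm38.p6) are written 5′ to 3′ as far as no exon of the GENCODE M21 annotation covers them, with the last 50 bases printed in capitals. For Acsm5 and Acsm1 they end at positions -58 and -32 from the start. Acsl5, the enzyme that rose, and Ehhadh, the enzyme with the largest fold change of all 37, follow for comparison. The GENCODE bounds of Acsm5, Acsm1 and Acsl5 (from chr19:55251938) begin before these RefSeq starts, so the bases shown for them lie inside the gene.
Acsm5, chr7:119526015-119526207, plus strand: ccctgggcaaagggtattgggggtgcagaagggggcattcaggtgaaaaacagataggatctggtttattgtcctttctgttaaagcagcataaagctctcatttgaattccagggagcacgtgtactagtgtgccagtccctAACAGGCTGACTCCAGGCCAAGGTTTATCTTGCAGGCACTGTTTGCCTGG
Acsm1, chr7:119617562-119617780, plus strand: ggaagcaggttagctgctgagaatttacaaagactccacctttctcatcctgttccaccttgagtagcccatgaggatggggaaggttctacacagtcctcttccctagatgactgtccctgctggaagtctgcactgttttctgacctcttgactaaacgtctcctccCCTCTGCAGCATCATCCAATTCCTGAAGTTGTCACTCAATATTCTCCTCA
Acsm3, chr7:119760673-119760922, plus strand: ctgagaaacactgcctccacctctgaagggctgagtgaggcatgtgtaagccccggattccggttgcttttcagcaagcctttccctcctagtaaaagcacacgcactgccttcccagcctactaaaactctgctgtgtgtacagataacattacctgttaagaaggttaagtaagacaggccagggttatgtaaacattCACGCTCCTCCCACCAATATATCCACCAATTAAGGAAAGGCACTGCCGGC
Acsl5, chr19:55253119-55253368, plus strand: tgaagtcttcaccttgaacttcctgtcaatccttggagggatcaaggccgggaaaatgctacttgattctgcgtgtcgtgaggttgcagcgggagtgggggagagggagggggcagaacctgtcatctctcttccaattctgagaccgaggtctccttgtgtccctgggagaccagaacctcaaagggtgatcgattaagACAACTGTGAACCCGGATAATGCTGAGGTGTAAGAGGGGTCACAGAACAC
Ehhadh, chr16:21787835-21788084, minus strand: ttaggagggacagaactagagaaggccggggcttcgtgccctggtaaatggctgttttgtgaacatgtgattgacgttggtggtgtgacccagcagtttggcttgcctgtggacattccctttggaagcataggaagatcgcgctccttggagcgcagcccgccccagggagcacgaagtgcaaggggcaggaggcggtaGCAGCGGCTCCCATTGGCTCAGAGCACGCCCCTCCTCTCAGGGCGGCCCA

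PPARA binds with RXRA to 2 half-sites spaced by 1 base. The letters AGGTCANAGGTCA were searched on both strands of the RefSeq windows, which run from 250 bases before to 50 after each start, with up to 2 mismatches allowed. RefSeq windows were matched for 33 of the 37 enzymes, and 3 of these (9.091%) held a match, Echs1, Etfa and Acox2. Among 26994 genes with a window the share was 4.401%. The matches of Echs1 and Etfa lie before their starts and are shown in capitals with the bases around them, whereas that of Acox2 lies after a start.
Echs1, chr7:140116477-140116534, minus strand: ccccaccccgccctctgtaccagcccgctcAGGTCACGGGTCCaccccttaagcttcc
Etfa, chr9:55512278-55512350, minus strand: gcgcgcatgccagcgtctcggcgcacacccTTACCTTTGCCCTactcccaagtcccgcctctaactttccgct
Neither the ACSM genes nor Acsl5 or Ehhadh held a match in these windows. A match describes letters only.

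The 3 mitochondrial ACSM enzymes, which activate medium chains and such acids as benzoate, were each lower in every METTL3-HKD liver than in every METTL3-Flox liver. Acsm1, the most abundant of them, stood at 50.4, 65.8, 94.7 and 99.2 FPKM in the METTL3-HKD livers (1 to 4) and at 122, 136, 128 and 126 FPKM in METTL3-Flox livers 1 to 4. The control livers lay close together, and the METTL3-HKD livers were spread, with livers 1 and 2 lowest. Acsm1 fell by 0.77 on the log2 scale (SE 0.204, adjusted p = 0.0354 in limma). Leaving out METTL3-HKD liver 1 or 2, or any 1 of the 4 METTL3-Flox livers, took its adjusted p to between 0.0550 and 0.0876 in limma. Scaling to the reads on genes took it to 0.0541 in limma.

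Acsm3 was read at 6.25, 7.75, 9.29 and 7.88 FPKM in METTL3-HKD livers and at 10.96, 15.5, 12.8 and 14.7 FPKM in the controls. The groups did not overlap, and Acsm3 fell by 0.79 on the log2 scale (SE 0.147, adjusted p = 0.0120 in limma). Of its exon bases, 39.75% are also exon of Eri2 on the opposite strand, which was listed at a mean of 0.63 FPKM.

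Acsm5 gave 5.39, 8.93, 7.69 and 7.76 FPKM in METTL3-HKD livers and 11.2, 15.5, 16.7 and 16.1 FPKM in METTL3-Flox livers. No METTL3-HKD liver reached the lowest control, and Acsm5 fell by 0.99 on the log2 scale (SE 0.179, adjusted p = 0.0108 in limma). It was the only one of the 37 enzymes that passed the test under all 16 alternatives. Without METTL3-HKD livers 1 and 2, its adjusted p was 0.0451 in limma, whereas that of Acsm3 was 0.0883 and that of Acsm1 was 0.0844. Of the other genes in the cluster, Acsm2 lay below every control liver in every METTL3-HKD liver at under 0.3 FPKM (log2 fold change -0.71, adjusted p = 0.121 in limma, and called lower by voom), and Acsm4 was listed at 0 FPKM in 7 of the 8 livers.

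The long-chain synthetases, which sit on the outer mitochondrial membrane, the endoplasmic reticulum and peroxisomes, had positive log2 fold changes. Acsl5 read 43.7, 39.5, 50.5 and 58.9 FPKM in METTL3-HKD livers and 23.8, 37.4, 29.5 and 27.8 FPKM in METTL3-Flox livers. The groups did not overlap, although METTL3-HKD liver 2 and METTL3-Flox liver 2 were close. Acsl5 rose by 0.70 on the log2 scale (SE 0.165, adjusted p = 0.0248 in limma). Leaving out METTL3-HKD liver 4, METTL3-Flox liver 3 or METTL3-Flox liver 4 took the adjusted p to 0.0539, 0.0646 and 0.0620 in limma, and without METTL3-HKD livers 1 and 2 it was 0.0510. Of the exon bases of Acsl5, 8.306% are also exon of Zdhhc6 on the other strand, at a mean of 7.36 FPKM.

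Acsl4, which prefers arachidonic acid, gave 16.5, 12.6, 10.6 and 14.1 FPKM in METTL3-HKD livers and 7.67, 11.2, 9.71 and 10.02 FPKM in METTL3-Flox livers. METTL3-HKD liver 3 fell within the control range, and the log2 fold change of 0.47 missed the threshold (adjusted p = 0.0741 in limma). Without METTL3-HKD liver 3 the adjusted p was 0.0365 in limma. Acsl1, the main long-chain synthetase of the liver, ran from 40.4 to 61.4 FPKM in METTL3-HKD livers and from 28.5 to 54.0 FPKM in METTL3-Flox livers (log2 fold change 0.24, adjusted p = 0.464 in limma).

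Within each liver, the summed FPKM of the 3 ACSM genes was set against that of the 3 ACSL genes, a ratio that does not depend on the scaling between livers. The ratio was 0.617, 0.811, 0.912 and 1.01 in METTL3-HKD livers 1 to 4 and 2.41, 1.63, 1.93 and 2.004 in METTL3-Flox livers 1 to 4. The groups did not overlap. The ratio was formed after the values of its genes were seen and was not tested.

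**Figure D2:**
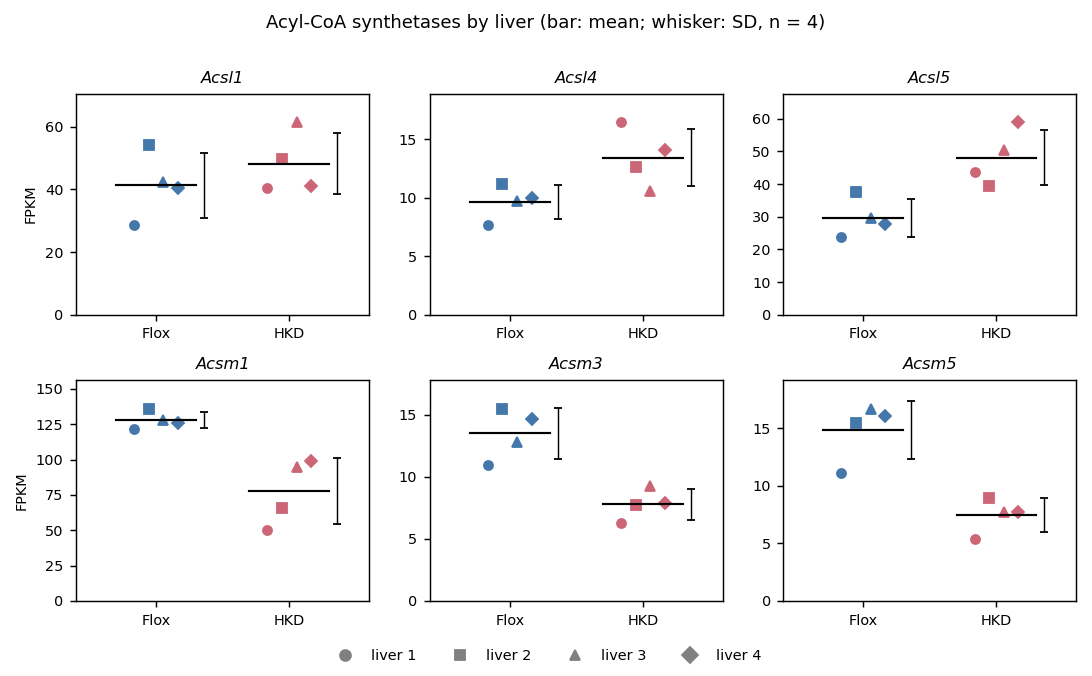
Each panel plots the FPKM of 1 acyl-CoA synthetase in the 4 METTL3-Flox and 4 METTL3-HKD livers, with the mean as a bar, the SD as a whisker and a marker shape for the liver number. The ACSM panels show all METTL3-HKD livers below the controls, and the Acsl5 panel shows all of them above.

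The carnitine step, which commits long chains to the mitochondrion, gave no call. Cpt1a, the gate of the pathway, read 89.2, 91.4, 86.9 and 93.4 FPKM in METTL3-HKD livers and 53.7, 129, 63.5 and 94.8 FPKM in METTL3-Flox livers. The METTL3-HKD livers lay within the much wider range of the controls, and the log2 fold change was 0.17 with a 95% interval from -0.39 to 0.72. Its direction rested on single livers, since it ran from -0.03 to 0.39 when each liver was left out in turn. Cpt2, the inner membrane partner, had a log2 fold change of 0.18 (adjusted p = 0.309 in limma).

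Crat, which moves acetyl groups between carnitine and coenzyme A, gave 14.0, 18.1, 17.0 and 12.8 FPKM in METTL3-HKD livers and 10.8, 11.3, 11.4 and 13.6 FPKM in METTL3-Flox livers. METTL3-HKD liver 4 lay below METTL3-Flox liver 4, and the log2 fold change of 0.39 missed the threshold (adjusted p = 0.0759 in limma). Crot, the peroxisomal octanoyltransferase and the most abundant of the carnitine enzymes, stood at 168, 142, 118 and 102 FPKM in METTL3-HKD livers and at 154, 169, 154 and 91.3 FPKM in METTL3-Flox livers. The groups overlapped throughout (log2 fold change -0.09, adjusted p = 0.818 in limma).

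Of the 8 acyl-CoA dehydrogenases, none passed the test in limma, at a median log2 fold change of -0.20, and voom called none. At an unadjusted p under 0.05, 4 of them were lower, beside 15.1% of all genes. With a minimum mean of 1 FPKM, limma called Acad8 lower (adjusted p = 0.0462). Acadvl, which takes very long chains, read 67.6, 71.7, 75.7 and 77.2 FPKM in METTL3-HKD livers and 87.6, 87.1, 81.8 and 92.6 FPKM in METTL3-Flox livers. Acads, for short chains, read 49.3, 50.9, 56.1 and 54.8 FPKM against 62.1, 60.4, 59.4 and 62.7 FPKM. Acad8, which acts on isobutyryl-CoA from valine, read 8.77, 10.6, 9.18 and 9.51 FPKM against 11.1, 12.1, 11.2 and 12.0 FPKM. In these 3 genes every METTL3-HKD liver lay below every control, by small steps, on the deposited scale. Their log2 fold changes were -0.26, -0.21 and -0.29, with adjusted p values of 0.0694, 0.0967 and 0.0569 in limma. After scaling to the reads on genes these log2 fold changes were -0.04, 0.00 and -0.07, and the median of the 8 dehydrogenases was 0.02. Of the exon bases of Acadvl, 42.85% are also exon of Dvl2 on the opposite strand, which was listed at 0.92 FPKM.

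Acadl, for long chains, had the highest mean of the dehydrogenases over all 8 livers, though Acadvl was above it in METTL3-Flox livers. Acadl stood at 85.4, 87.3, 84.0 and 81.1 FPKM in METTL3-HKD livers and 71.7, 82.6, 69.3 and 86.9 FPKM in METTL3-Flox livers. The groups overlapped, and its log2 fold change was 0.13 (adjusted p = 0.400 in limma). Acadm, the medium-chain enzyme that takes the products of the ACSM synthetases, ran from 59.8 to 81.3 FPKM against 71.3 to 87.3 FPKM (log2 fold change -0.19, 95% interval -0.46 to 0.09). Acadsb was at -0.26, Acad10 at -0.13 and Acad11 at 0.02 on the log2 scale, with adjusted p values from 0.105 to 0.940 in limma.

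The electron transfer flavoprotein passes electrons from the dehydrogenases to its oxidoreductase, encoded by Etfdh, and on to the respiratory chain. Etfa, its alpha subunit, stood at 91.3, 109.7, 108 and 111 FPKM in METTL3-HKD livers and at 127, 130.1, 106 and 112 FPKM in METTL3-Flox livers. METTL3-HKD liver 1 lay apart below the rest, and the groups overlapped. The log2 fold changes were -0.18 for Etfa, -0.28 for the beta subunit gene Etfb and -0.19 for Etfdh, with adjusted p values from 0.166 to 0.278 in limma. The log2 ratio of Etfa to Etfb within a liver was 2.29 ± 0.163 (SD, n = 4) in METTL3-HKD and 2.19 ± 0.183 (SD, n = 4) in METTL3-Flox livers. These differed by less than the spread between livers (exact two-sided permutation p = 0.429, adjusted p = 0.429 over 3 ratios). Of the exon bases of Etfb, 58.25% are shared with other genes, mostly with a gene on the same strand that was listed at 0 FPKM.

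Of the 5 enzymes of hydration, second dehydrogenation and thiolysis, Echs1 came closest to the threshold. Echs1, the short-chain enoyl-CoA hydratase, gave 13.0, 13.7, 17.4 and 20.1 FPKM in METTL3-HKD livers and 24.0, 23.2, 21.0 and 20.7 FPKM in METTL3-Flox livers. The groups were parted by a narrow gap, with METTL3-HKD livers 1 and 2 lowest (log2 fold change -0.49, SE 0.144, adjusted p = 0.0505 in limma). The adjusted p was 0.0270 without METTL3-HKD liver 4 and 0.0418 with a minimum mean of 1 FPKM in limma, and 0.0467 under voom. Acaa2, the mitochondrial thiolase and the most abundant of the 37 transcripts per length, stood at 330.1, 377, 437 and 468 FPKM in METTL3-HKD livers and at 462, 483, 358 and 451 FPKM in METTL3-Flox livers. The groups overlapped, with METTL3-HKD liver 1 lowest (log2 fold change -0.13, adjusted p = 0.609 in limma).

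Hadha and Hadhb encode the 2 subunits of the trifunctional protein, which runs the last 3 steps for long chains. Their log2 fold changes were 0.01 and 0.19 (adjusted p = 0.976 and 0.262 in limma). They are divergent neighbours, with RefSeq starts 273 bases apart. The 85 bases between the outermost exons of both genes, on the plus strand, show how close they stand.
Hadha to Hadhb, chr5:30155163-30155247, plus strand: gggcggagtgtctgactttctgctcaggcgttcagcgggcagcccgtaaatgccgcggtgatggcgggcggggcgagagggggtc
The log2 ratio of Hadha to Hadhb was 0.53 ± 0.142 (SD, n = 4) in METTL3-HKD and 0.72 ± 0.0786 (SD, n = 4) in METTL3-Flox livers. The difference of -0.19 did not pass the test (exact two-sided permutation p = 0.0857, adjusted p = 0.129 over 3 ratios), where 4 against 4 livers allow a smallest p of 0.0286. Of the 50-base words in the Hadhb transcripts, 19.71% also occur in other genes, so its level is less certain. Hadh, for the second dehydrogenation of short chains, had a log2 fold change of -0.10 (adjusted p = 0.662 in limma).

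The auxiliary enzymes prepare unsaturated fatty acids for the spiral. Their 4 genes had positive log2 fold changes between 0.10 and 0.24, and none passed the test in limma, at an unadjusted p under 0.05 or under voom. Eci1, the mitochondrial enoyl-CoA isomerase and the highest of them, stood at 88.6, 90.7, 75.9 and 81.7 FPKM in METTL3-HKD livers and at 70.8, 86.5, 74.4 and 80.7 FPKM in METTL3-Flox livers. The ranges overlapped (log2 fold change 0.11, adjusted p = 0.488 in limma).

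Among the peroxisomal enzymes, the largest log2 fold changes were those of Ehhadh and Acaa1b, and neither passed the test in limma. Ehhadh, the bifunctional enzyme of the inducible straight-chain route, read 115, 170.5, 100.7 and 58.4 FPKM in METTL3-HKD livers and 25.8, 53.7, 43.9 and 66.4 FPKM in METTL3-Flox livers. METTL3-HKD liver 4 lay below METTL3-Flox liver 4, and liver 2 was highest. The log2 fold change was 1.21 with a 95% interval from 0.39 to 2.02 (adjusted p = 0.0522 in limma). Its call depended on the setting, with adjusted p values of 0.0368 under voom, 0.0424 with a minimum mean of 1 FPKM, 0.0444 after scaling to the reads on genes, and 0.0298 without METTL3-HKD liver 4 in limma. Without METTL3-HKD livers 1 and 2, the log2 fold change was 0.77 and the adjusted p 0.321 in limma.

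Acaa1b, 1 of the 2 mouse peroxisomal thiolases, stood at 168, 241, 214 and 185 FPKM in METTL3-HKD livers and at 45.2, 156, 108 and 165 FPKM in METTL3-Flox livers. The METTL3-HKD livers were all above the controls, by a narrow gap to METTL3-Flox livers 2 and 4, and METTL3-Flox liver 1 was far below them. The log2 fold change of 0.92 did not pass the test (adjusted p = 0.126 in limma), and without METTL3-Flox liver 1 it was 0.51 (adjusted p = 0.103 in limma). Acaa1a, its close paralog, read 38.2, 45.1, 39.1 and 37.8 FPKM against 43.2, 57.3, 44.7 and 49.5 FPKM, at a log2 fold change of -0.28 (adjusted p = 0.126 in limma).

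The log2 ratio of Acaa1a to Acaa1b within a liver was -2.33 ± 0.142 (SD, n = 4) in METTL3-HKD and -1.13 ± 0.736 (SD, n = 4) in METTL3-Flox livers, without overlap. The difference of -1.195 had the smallest p that the exact two-sided permutation test allows, 0.0286, and an adjusted p of 0.0857 over 3 ratios. Leaving out METTL3-Flox liver 1 reduced it to -0.84. The genes share 583 words of 50 bases, 12.43% of those in Acaa1a and 30.48% of those in Acaa1b, so reads in these stretches cannot be told apart.

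The other peroxisomal enzymes gave smaller differences. Acox3, a branched-chain oxidase at 1.61 to 1.98 FPKM in METTL3-HKD and 1.99 to 2.79 FPKM in METTL3-Flox livers, had a log2 fold change of -0.35 (adjusted p = 0.109 in limma), without overlap. Acox2, which acts on bile acid intermediates, had a log2 fold change of -0.17, Hsd17b4, the second bifunctional enzyme, one of -0.21, and Decr2, the peroxisomal dienoyl-CoA reductase, one of 0.10, with adjusted p values from 0.220 to 0.769 in limma.

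By compartment, the 22 mitochondrial enzymes had a median log2 fold change of -0.18. In limma 0 were higher and 3 lower, beside 9.05% and 6.63% of all genes. They had 0 higher and 8 lower at an unadjusted p under 0.05, beside 16.7% and 15.1% of all genes. Voom called 0 of them higher and 4 lower, beside 9.64% and 6.84% of all genes. The 8 peroxisomal enzymes had a median of -0.13 (-0.07 without METTL3-Flox liver 2 or without METTL3-HKD liver 4) with no call in limma. An unadjusted p under 0.05 gave 2 of these 8 higher and 2 lower, and voom called Ehhadh higher. The 6 enzymes of several compartments had a median of 0.31, with 1 higher in limma (Acsl5), which voom also called. At an unadjusted p under 0.05, 3 of these 6 were higher. All 3 medians moved up when the livers were scaled to their reads on genes, to 0.03, 0.09 and 0.53, as that scaling moved the median of all genes to 0.20. Relative to that median the order of the compartments was the same. Summed over the mitochondrial enzymes, FPKM ran from 1214 to 1446 in METTL3-HKD and from 1324 to 1638 in METTL3-Flox livers, which overlap. Of the 37 enzymes, 2 lay above every control in every METTL3-HKD liver, against 12.7% of all genes tested, and 8 lay below, against 9.95%.

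**Figure D3:**
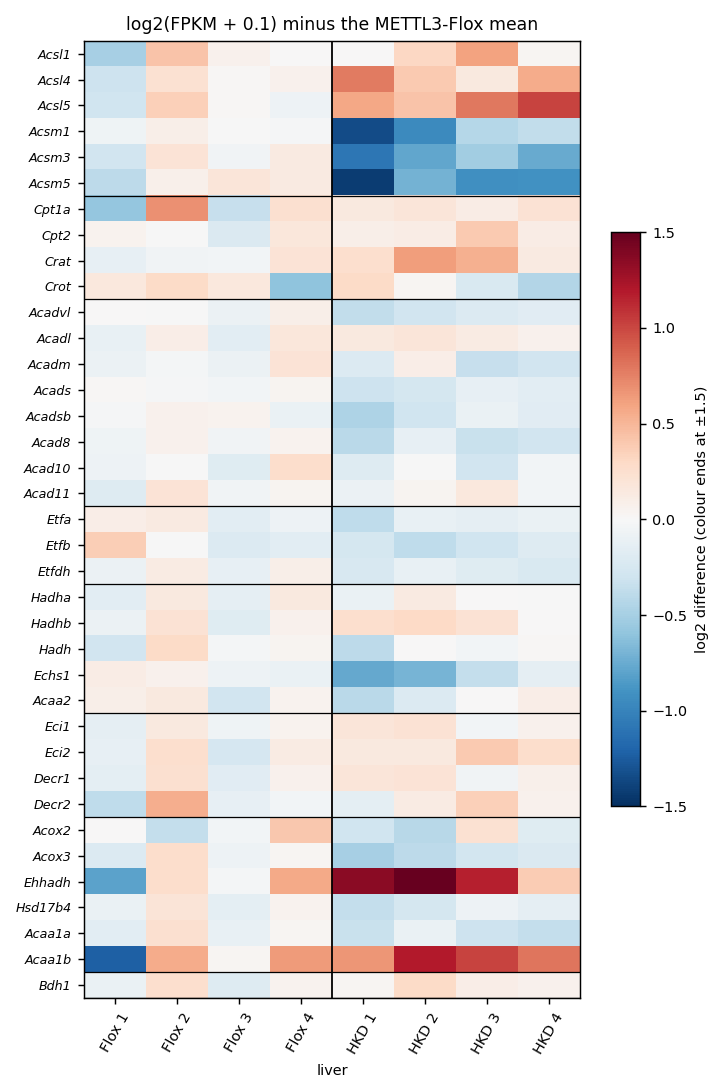
Colour shows log2(FPKM + 0.1) of each enzyme in each liver minus the METTL3-Flox mean, red above and blue below, with the scale ending at 1.5 in either direction. The ACSM rows are blue in all 4 METTL3-HKD livers, Ehhadh and Acaa1b are red there and blue in METTL3-Flox liver 1, and most other rows are paler.

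Ketone body synthesis ends in Bdh1, which reduces acetoacetate to 3-hydroxybutyrate. Bdh1 stood at 45.5, 54.5, 47.9 and 46.8 FPKM in METTL3-HKD livers and at 41.5, 52.9, 39.0 and 46.0 FPKM in METTL3-Flox livers. The ranges overlapped, and the log2 fold change of 0.12 had a 95% interval from -0.13 to 0.38 (adjusted p = 0.489 in limma). Among 7 further genes of ketone body synthesis and export, 1 was higher and none lower in limma, beside 9.05% and 6.63% of all genes. At an unadjusted p under 0.05, 2 were higher and none lower, beside 16.7% and 15.1% of all genes. The one that rose was Slc16a1, the monocarboxylate transporter that carries lactate and ketone bodies. It read 38.2, 34.2, 24.8 and 24.8 FPKM in METTL3-HKD livers and 20.7, 11.6, 17.0 and 15.1 FPKM in METTL3-Flox livers, without overlap (log2 fold change 0.92, adjusted p = 0.0204 in limma). Without METTL3-HKD livers 1 and 2 its adjusted p was 0.156 in limma. Slc16a6 had a log2 fold change of 0.63 and Slc16a7 one of -0.35, and neither passed the test (adjusted p = 0.143 and 0.274 in limma).

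Of 23 genes of PPARA and its known targets, 5 were higher and 3 lower in limma, beside 9.05% and 6.63% of all genes. Their median log2 fold change was 0.51, and it was 0.21 without METTL3-HKD livers 1 and 2. Ppara itself was at 0.02 (adjusted p = 0.976 in limma) and its coactivator gene Ppargc1a at -0.06 (adjusted p = 0.903 in limma). Hilpda, an inhibitor of lipolysis that coats lipid droplets, read 60.04, 32.4, 16.3 and 26.8 FPKM in METTL3-HKD livers and 2.87, 2.13, 1.43 and 1.63 FPKM in METTL3-Flox livers, a rise of 3.89 on the log2 scale (adjusted p = 0.00157 in limma). Plin2, the main lipid droplet protein of hepatocytes, read 622, 489, 306 and 287 FPKM against 124, 106, 108 and 148 FPKM, a rise of 1.75 (adjusted p = 0.00523 in limma). Both were far above the controls in each METTL3-HKD liver.

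Pdk4, a kinase that inhibits pyruvate dehydrogenase, read 32.0, 21.0, 8.74 and 3.43 FPKM against 1.06, 1.52, 1.39 and 1.19 FPKM. It rose by 3.13 on the log2 scale (adjusted p = 0.0121 in limma). Angptl4, an inhibitor of lipoprotein lipase, rose by 1.09 and Cyp4a14, an omega-hydroxylase of fatty acids, by 1.86 (adjusted p = 0.0343 and 0.0461 in limma). For Pdk4, METTL3-HKD livers 1 and 2 were the highest. The same livers stood out for Cyp4a14, at 309 and 390.2 FPKM against 92.5 and 101.2 FPKM in livers 3 and 4, and without them its adjusted p was 0.270 in limma. That of Angptl4 was then 0.0844. Cyp4a10, its neighbour in function, overlapped between groups (log2 fold change 1.02, adjusted p = 0.153 in limma), as did the hormone gene Fgf21 (log2 fold change 0.51, adjusted p = 0.337 in limma).

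Lpin1, a coactivator of PPARA and a phosphatidate phosphatase, fell by 1.66 on the log2 scale, Rxra by 0.45 and Cyp4a12a by 0.70 (adjusted p = 0.0164, 0.0263 and 0.0406 in limma). Without METTL3-HKD livers 1 and 2 the call of Lpin1 held (adjusted p = 0.0462 in limma), and Rxra and Cyp4a12a gave 0.142 and 0.185. After scaling to the reads on genes, 6 genes of this list were higher and 1 was lower in limma, beside 13.9% and 2.24% of all genes.

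**Figure D4:**
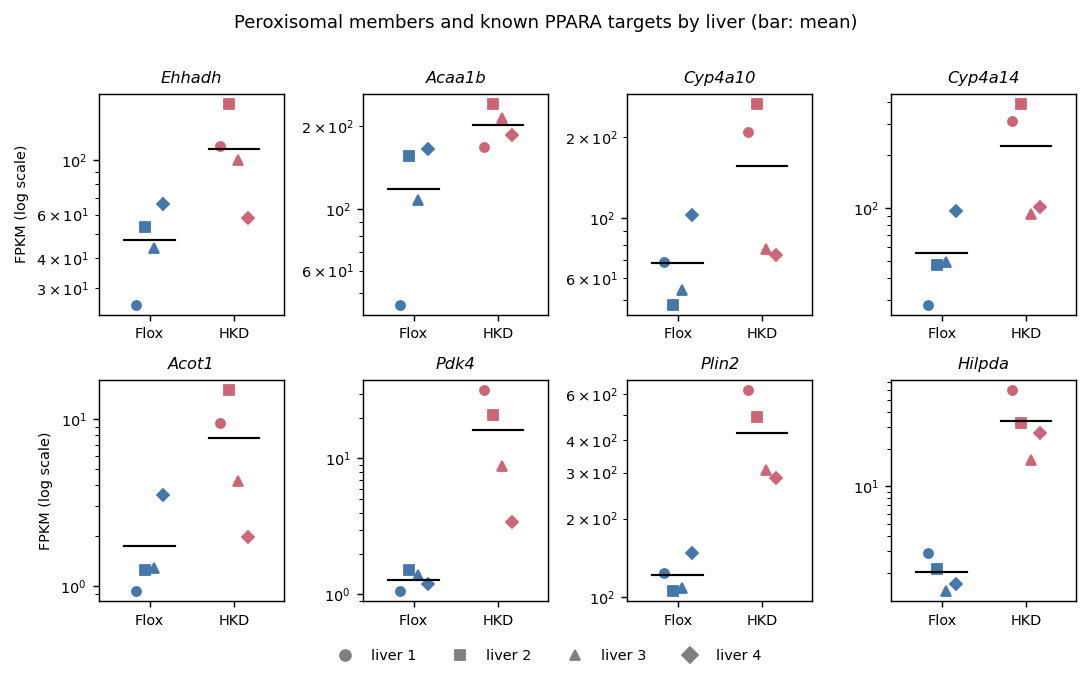
Each panel plots the FPKM of 1 gene in the 4 livers of each group on a log axis, with the arithmetic mean as a bar and a marker shape for the liver number. Pdk4, Plin2 and Hilpda separate the groups. METTL3-HKD livers 1 and 2 lie apart from livers 3 and 4 for Cyp4a10, Cyp4a14 and Acot1. They are also the highest METTL3-HKD livers for Pdk4, Plin2 and Hilpda.

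Fatty acid uptake and binding gave 0 higher and 2 lower of 8 genes in limma, beside 9.05% and 6.63% of all genes. At an unadjusted p under 0.05, 2 were higher and 2 lower, beside 16.7% and 15.1% of all genes. Slc27a5, the bile acid and very long chain acyl-CoA synthetase, fell by 0.45, and Acbd5, which tethers peroxisomes to the endoplasmic reticulum, fell by 0.44 on the log2 scale (adjusted p = 0.0262 and 0.0270 in limma). Their adjusted p values were 0.169 and 0.177 in limma without METTL3-HKD livers 1 and 2. Cd36 was at 0.53, Slc27a4 at 0.31, Fabp1 at 0.29 and Dbi at -0.37, none past the test (adjusted p from 0.0676 to 0.512 in limma).

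Among 20 further mitochondrial genes that were tested, 2 were higher and 1 was lower in limma, beside 9.05% and 6.63% of all genes. Acot2, a mitochondrial thioesterase that frees fatty acids from coenzyme A, read 28.0, 43.4, 5.42 and 14.8 FPKM in METTL3-HKD livers and 0.481, 1.07, 0.869 and 1.27 FPKM in METTL3-Flox livers. It rose by 4.19 on the log2 scale (adjusted p = 0.00451 in limma), and it has close paralogs in Acot1 and Acot3, so that the split of reads between them is uncertain. Acot9, another thioesterase, rose by 1.10 and Acot13 fell by 0.42 (adjusted p = 0.00873 and 0.0186 in limma). In limma without METTL3-HKD livers 1 and 2, the adjusted p was 0.0234 for Acot2, 0.0740 for Acot9 and 0.0835 for Acot13. Ivd and Pccb, of leucine and propionate breakdown, were at -0.31 and -0.43, and Hsd17b10 was at 0.24 (adjusted p from 0.0702 to 0.203 in limma).

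Among 21 further peroxisomal genes, 3 were higher and 4 lower in limma, beside 9.05% and 6.63% of all genes. The higher ones were Nudt19, a coenzyme A hydrolase, at 0.42, Pex11a, a factor of peroxisome division, at 0.60, and Acot3, at 2.55 on the log2 scale (adjusted p from 0.02997 to 0.0488 in limma). Catalase (Cat) fell by 0.70, Pecr, which reduces enoyl-CoA, by 0.84, and Phyh, which starts the oxidation of phytanic acid, by 0.41 (adjusted p from 0.0339 to 0.0397 in limma). The adjusted p values of these 6 genes ran from 0.145 to 0.330 in limma without METTL3-HKD livers 1 and 2.

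Over the lists of further genes, Hilpda, Plin2, Pdk4, Lpin1 and Acot2 passed the test under all 16 alternatives, Acot9 under 15, Acot13 under 12 and Slc16a1 under 11. Slc27a5, Rxra and Acbd5 passed under 9, 8 and 7, and the other named genes that passed the main test did so under 5 to 7. Scaling to the reads on genes changed the 11 higher and 10 lower of the 79 tested genes to 14 and 2 in limma. Over all genes it changed 9.05% higher and 6.63% lower to 13.9% and 2.24%.

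Each of these counts rests on whole tissue, in which fewer hepatocytes and less RNA per hepatocyte cannot be told apart. All 14 hepatocyte markers that were matched had a negative log2 fold change, at a median of -0.39. In limma 1 was lower (Hnf4a), beside 6.63% of all genes. At an unadjusted p under 0.05, 2 were lower (Hnf4a and Serpina1e), beside 15.1% of all genes. None was higher in limma, at an unadjusted p under 0.05 or under voom, beside 9.05%, 16.7% and 9.64% of all genes. After scaling to the reads on genes, the median was -0.18, Alb, Apob, Fgb and Ass1 were above 0, and the adjusted p of Hnf4a was 0.191 in limma. Without METTL3-HKD livers 1 and 2, the median was -0.08 and the adjusted p of Hnf4a 0.0844 in limma. Their summed FPKM ran from 28875 to 44400.5 in METTL3-HKD and from 41369 to 52939 in METTL3-Flox livers, and METTL3-HKD livers 1 and 2 held the lowest Serpina1e, at 341 and 197 FPKM. Of 11 neutrophil markers 8 were higher, beside 9.05% of all genes, with Csf3r at 7.56 to 15.1 against 0.838 to 1.17 FPKM. The summed level of these markers was 946 to 2497 against 646 to 2340 FPKM and, without Lcn2, which hepatocytes also make, 334 to 1640 against 13.2 to 45.7 FPKM. Over all genes 9.05% were higher and 6.63% lower in limma. Macrophage and monocyte markers gave 1 higher (Ccr2) and 4 lower (Clec4f, Timd4, Vsig4 and Cd5l) of 10. Cholangiocyte markers gave 4 higher of 5, endothelial markers 2 lower of 8, and stellate and fibroblast markers 1 higher and 1 lower of 7. For lymphocytes and adipocytes, 2 markers each were tested without a call. The part of these shifts in the enzyme values was not tested. On the first principal component, with 43.3% of the variance, METTL3-HKD livers lay at 82.4, 52.3, 16.0 and 37.8 and METTL3-Flox livers between -49.9 and -45.2.

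Mettl3 read 1.56, 1.39, 1.17 and 1.198 FPKM in METTL3-HKD livers and 1.84, 1.16, 1.45 and 1.54 FPKM in METTL3-Flox livers. The groups overlapped, and the log2 fold change of -0.16 did not pass the test (adjusted p = 0.556 in limma). In these values the genotype is therefore given by its label only. The loxP sites flank part of the gene, whereas FPKM covers the whole gene in all cells of the tissue. The study reports that it checked the loss of METTL3 in the liver separately.

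Across the 8 livers, after the mean of each group was subtracted, several enzymes followed each other. The highest Pearson r were 0.97 for Acad11 and Decr2, 0.96 for Etfdh and Hadha and 0.96 for Acaa1a and Bdh1, whereas Hadha and Hadhb had 0.70 and the ACSM pairs 0.50 to 0.74. For Bdh1, the most similar of all genes tested were Zxdb, 2310034O05Rik, Acaa1a, Hibch and Gins3, at r from 0.95 to 0.96. These r describe 8 points that share libraries and scaling.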

How the data were processed

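Livers of 4 METTL3-HKD and 4 METTL3-Flox mice were grouped by their labels. The authors deposited FPKM per gene with gene lengths, on GRCm38 (mm10) per the submitters' processing notes. Aligner, counter, annotation and strand setting are not given in the sources used here. The deposited FPKM gave whole reads, within 0.1, for 100% of non-zero values, with 15861245 to 18434488 reads on genes per liver, and had been scaled between libraries. Genes averaging 0.1 FPKM or more were tested on log2(FPKM + 0.1) with limma 3.58.1 in R 4.3.3 (mean-variance trend, Benjamini-Hochberg over 16645 genes). Exact permutation tests went through all 70 arrangements of the 8 livers in Python 3.11.15, and the 95% intervals used scipy 1.17.1. In simulated data of 15937 genes with the same dispersion for every gene, limma called 56 of 102 genes changed by 1 on the log2 scale. Of 90 genes changed by 2 it called 87, and it called 10 unchanged genes. A smaller share of genes was changed there than passed the test in these livers, so these rates need not hold here. A gene that did not pass the test may still differ. The 16 alternatives included a pseudocount or minimum of 1 FPKM, voom with TMM scaling, and each liver left out. Enzymes, lists and tests were chosen with earlier results of these data known. The text names every enzyme, gives liver values where adjusted p was under 0.1 or the level was highest in its role, and names the 3 genes per direction with the smallest adjusted p of each further list. Cyp4a10, Cyp4a14, Acot1, Acsm2 and Acsm4 were named after their values were seen. Some single genes of these lists are not reported here. Replicates are separate mice.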

Additional observations from a re-analysis of the deposited data

Results flagged for a closer look

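In 74 groups of 4 livers, 1 per enzyme and genotype, 3 held a liver that stood apart by Dixon's criterion, which chance meets in about 1 of 20 groups. Cpt2 was highest in METTL3-HKD liver 3, at 79.74 FPKM, where the others lay between 64.83 and 65.95 FPKM. Etfa was lowest in METTL3-HKD liver 1, at 91.30 FPKM, where the others lay between 107.6 and 110.8 FPKM. Hadh was lowest in the same liver, at 30.88 FPKM, where the others lay between 39.37 and 40.93 FPKM.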

How the results depend on the processing

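The count of 1 enzyme higher in METTL3-HKD became 2 with a minimum mean of 1 FPKM, 4 after scaling to the reads on genes, 2 under voom, 0 with the replicate block, and 0 without METTL3-HKD livers 1 and 2, an alternative chosen after seeing the data. It ran from 0 to 2 when each liver was left out in turn. The count of 3 lower became 5 with the minimum mean of 1 FPKM and 1 without METTL3-HKD livers 1 and 2, and ran from 2 to 4 over single livers. Of the 79 further genes tested, the 11 higher became 7 with no minimum, 6 with no mean-variance trend and 4 without METTL3-HKD livers 1 and 2, and ran from 5 to 12 over single livers. The 10 lower became 5, 6 and 1 in the same order, 2 after scaling to the reads on genes and 4 with the replicate block, and ran from 1 to 10 over single livers. Over all genes, 1506 higher and 1104 lower became 2310 and 374 after scaling to the reads on genes, and 321 and 195 without METTL3-HKD livers 1 and 2, where 6 livers were left. The cause of these shifts was not tested.

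Scaling to the reads on genes moved the median of all 37 enzymes to 0.12, of the mitochondrial ones to 0.0328, of the peroxisomal ones to 0.0887 and of those of several compartments to 0.53, against 0.20 for all genes. It turned the sign of Crot to 0.13, Acadm to 0.0305, Acads to 0.00228, Acad10 to 0.0797, Etfa to 0.0350, Etfdh to 0.0239, Hadh to 0.115, Acaa2 to 0.0901, Acox2 to 0.0509 and Hsd17b4 to 0.00788, none of which had passed the test. Without METTL3-HKD livers 1 and 2, Hadha turned to -0.00386, Acaa2 to 0.0529 and Acox2 to 0.0240. Over single livers left out, Cpt1a ran from -0.0280 to 0.394, Crot from -0.289 to 0.0275, Acad11 from -0.0476 to 0.0843, Hadha from -0.0457 to 0.0554 and Decr2 from -0.0315 to 0.277. Of 592 values of single enzymes under the alternatives, 541 kept direction and side of the threshold. Most of these belong to the 33 enzymes that had not passed the main test. Of those that had, Acsl5 passed under 11 of the 16 alternatives, Acsm1 under 5, Acsm3 under 15 and Acsm5 under all 16.

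Same-numbered livers of the groups correlated in their deviations at 0.07, -0.08, -0.01 and -0.03, and differently numbered ones at -0.067 to 0.094. The numbers thus showed no pairing, but these values cannot show whether mice shared a litter or a surgery day. The replicate block called 2 enzymes lower, Acsm3 and Acsm5, and 971 higher and 645 lower of all genes. Reads per liver were at least 412 for Acsm5 but reached down to 0 for Acot3, 15 for Acot2, 24 for Hilpda and 53 for Pdk4, where counting error is larger.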
